A study of Mus musculus with 6 samples.

Results

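The 8 genes described here encode interferon-inducible GTPases of the mouse: the immunity-related GTPases (IRGs) Irgm1, Irgm2, Igtp, Iigp1, Tgtp1, Tgtp2 and Ifi47, and the very large inducible GTPase Gvin1. They were taken by name from a table of 55401 gene identifiers, and all 8 were among the 18537 genes that passed the filter on low counts. The names were chosen by their higher levels in NOD/Ltj in these same libraries. Their differences between the strains are therefore a description. No p-value is given for them, and the calls counted for them support nothing.

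RNA sequencing of polyadenylated transcripts was done on 3 lacrimal gland samples of NOD/Ltj mice and 3 of ICR mice. The lacrimal gland makes the watery part of the tear film. NOD/Ltj (called NOD below) is an inbred strain that develops autoimmune inflammation of several glands and serves as a model of Sjögren's syndrome, and ICR is an outbred stock labelled as the control. The NOD samples were grouped by their genotype label, while their titles read MOD. The labels name no agent, transgene or targeted allele for either group and state no age and no sex, and either could differ between the groups in a way that cannot be told apart from strain. Nor do they state that the samples are separate animals, and the spread behind a p-value is that between these samples, which may be technical.

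IRGs are cytosolic GTPases that cells make in response to interferon-γ. They are best known for attacking the vacuoles in which Toxoplasma and some bacteria live. Proteins of the GMS subgroup (Irgm1, Irgm2 and Igtp, named after an unusual methionine in the nucleotide-binding loop) sit on the cell's own membranes and hold the others inactive there. Proteins of the GKS subgroup (Iigp1, Tgtp1, Tgtp2 and Ifi47, with the usual lysine) load onto the vacuole and break it open. Gvin1 belongs to a separate family of very large GTPases that interferons also induce.

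Promoters were compared because interferon-induced genes are commonly searched for a small number of known motifs. RefSeq promoters of build GRCm38.p6, running from 250 bases before to 50 bases after the annotated start, were at hand for 6 members on chromosome 11. Both strands were searched for the gamma-activated site (GAS, TTCNNNGAA), a motif of interferon-γ responses, and for the core of the interferon-stimulated response element (ISRE, GAAANNGAAA), which interferon regulatory factors bind. A GAS match was found in 4 of these 6 members (Igtp, Irgm2, Tgtp1 and Tgtp2) and in 8.30% of all 32851 promoters. An ISRE core match was found in the same 4 and in Irgm1, and in 3.44% of all promoters. The 60-base windows below hold these matches in capitals, read 5′ to 3′ on the strand of the gene, and the window of Gm12185, another IRG-family gene, is shown with them because it holds the same arrangement.

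Igtp: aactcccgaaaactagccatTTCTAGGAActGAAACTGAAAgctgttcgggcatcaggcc
Irgm2: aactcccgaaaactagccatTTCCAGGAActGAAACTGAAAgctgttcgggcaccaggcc
Tgtp1: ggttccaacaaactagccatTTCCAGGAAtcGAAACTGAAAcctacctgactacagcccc
Tgtp2: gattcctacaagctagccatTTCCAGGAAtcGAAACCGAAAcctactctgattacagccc
Gm12185: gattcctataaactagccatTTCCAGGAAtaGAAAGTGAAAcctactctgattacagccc
Irgm1: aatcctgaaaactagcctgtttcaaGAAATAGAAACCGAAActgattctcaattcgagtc

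The Igtp window lies at chr11:58199491-58199550 on the plus strand and the Irgm2 window at chr11:58214882-58214941 on the plus strand. The windows of Tgtp1 (chr11:48992295-48992354), Tgtp2 (chr11:49064254-49064313), Gm12185 (chr11:48927229-48927288) and Irgm1 (chr11:48871416-48871475) are read from the minus strand. In the windows of Igtp, Irgm2, Tgtp1, Tgtp2 and Gm12185 the GAS match was followed, 2 bases on, by the ISRE core match. This composite arrangement was put together after the sequences had been seen. It stood in 5 of the 32851 promoters (0.0152%), and these 5 were the ones shown. The GAS match began 45 bases before the annotated start in Igtp, 75 in Irgm2, 88 in Tgtp1, 81 in Tgtp2 and 86 in Gm12185. The windows of Igtp and Irgm2 were identical at 58 of 60 bases and those of Tgtp2 and Gm12185 at 55 of 60, so these promoters are related copies and not independent cases. Irgm1 had 2 overlapping ISRE core matches, beginning 30 and 24 bases before the start, and no GAS match, and Ifi47 held neither motif in its window. A match is a description of letters, and binding was not measured.

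**Figure D1:**
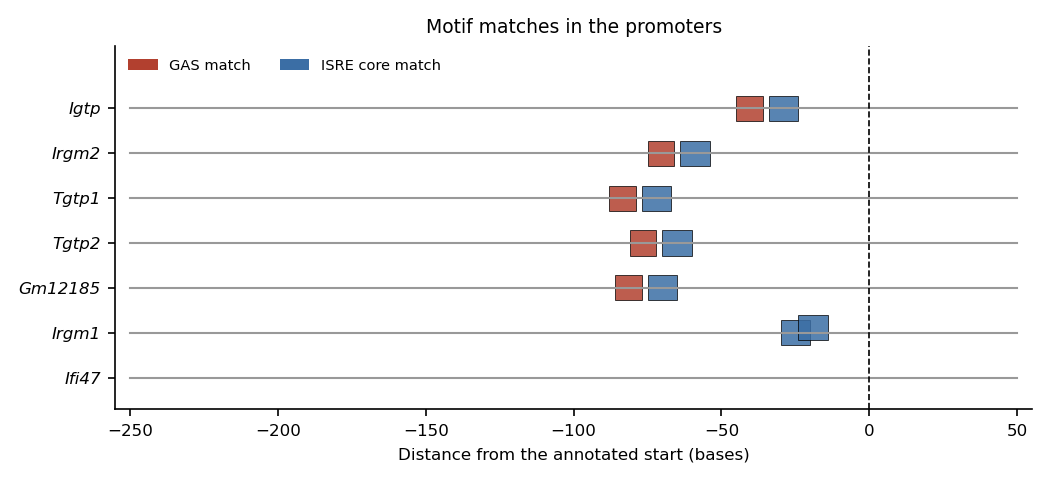
Positions of motif matches in the RefSeq promoters of 6 members and Gm12185. The x axis is the distance from the annotated start in bases (0 at the start), each row is a promoter, and boxes span the matches. The GAS and ISRE core boxes stand side by side in the upper 5 rows, between 88 and 25 bases before the start.

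Levels are CPM (counts scaled to library size) on library sizes scaled by the TMM method, with mean ± SD over 3 libraries, and differences are log2 fold changes of NOD over ICR with the standard error (SE) of the edgeR fit. The libraries held between 58426580 and 76554340 estimated counts. About 4 counts were taken to stand for each fragment, an assumption that the labels do not state. Among counts of 1 to 40, between 30.4 and 31.7% were multiples of 4, depending on the library. Most of these low counts were thus not multiples of 4, and the share is only weak ground for the assumption. On that assumption, the most that a count of 0 leaves room for is 3 fragments, 12 counts, or 0.149 to 0.222 CPM depending on the library, for counting error only. On the second principal component ICR 1 (−65.4) stood apart from ICR 2 (34.7) and ICR 3 (33.0). Summed salivary gland markers were high in ICR 3 (14070 CPM) and NOD 2 (2540 CPM), against between 75.4 and 1400 CPM in the other 4 libraries. The source of these transcripts was not tested. The 8 lacrimal acinar markers summed to between 8680 and 12637 CPM in NOD and between 9954 and 14188 CPM in ICR, and most of that sum was Pip, at between 7591 and 11715 CPM in NOD and between 7755 and 11082 CPM in ICR. None of the 8 was called by edgeR (2 at an unadjusted p under 0.05) or limma-voom, and 1 was lower by DESeq2. Car6, Slc12a2 and Aqp5 were lower in all NOD libraries than in any ICR library, Car6 with 28.7, 418 and 99.8 CPM in NOD, against 503, 1328 and 1903 CPM in ICR. A transcript level in whole gland RNA cannot tell apart fewer cells of a type from less RNA per cell.

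Each of the 8 genes was higher in all 3 NOD libraries than in any ICR library. Their log2 fold changes ran from 1.66 to 3.88. At an adjusted p under 0.05 (edgeR's quasi-likelihood test, adjusted by Benjamini-Hochberg over all genes), 7 of the 8 were called higher, all but Irgm1, where 2.24% of the genes tested were called in either direction and 1.88% were called higher. Groups without overlap were seen in 20.1% of all genes tested. Since the genes were selected on this difference, nothing is read from these shares.

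Among the GMS regulators, Igtp, which is found on the endoplasmic reticulum and on lipid droplets, had 29.4, 35.9 and 30.2 CPM in NOD 1, 2 and 3, against 5.21, 1.87 and 4.14 CPM in ICR 1, 2 and 3. The lowest NOD library stood 5.64-fold above the highest ICR library, and the log2 fold change was 3.09 ± 0.37 (SE). Irgm2, a Golgi-associated member, had 12.3, 20.7 and 18.4 CPM in NOD, against 6.12, 2.34 and 4.11 CPM in ICR. Its groups stood closer, with NOD 1 at 2.00 times ICR 1, and the log2 fold change was 2.03 ± 0.38 (SE). Irgm1, whose loss in mice leaves macrophages and blood-forming cells failing under interferon-γ, had 36.2, 43.8 and 37.6 CPM in NOD, against 17.5, 6.60 and 13.1 CPM in ICR. The 3 NOD libraries lay within 1.21-fold of each other, while ICR 1 was 2.64-fold above ICR 2. With a log2 fold change of 1.66 ± 0.34 (SE), Irgm1 had the smallest difference of the 8.

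Among the GKS effectors, Iigp1, the best studied loader of the Toxoplasma vacuole, had 26.1, 41.0 and 29.4 CPM in NOD and 4.35, 3.91 and 4.66 CPM in ICR. The ICR libraries were within 1.19-fold of each other, and the log2 fold change was 2.90 ± 0.22 (SE). Ifi47, an IRG known for defence against Toxoplasma, had 10.6, 21.8 and 15.1 CPM in NOD and 4.5, 1.36 and 2.15 CPM in ICR. ICR 1 was 3.32-fold above ICR 2, the widest spread within a strain among the 8, and the log2 fold change was 2.56 ± 0.48 (SE).

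Tgtp1 and Tgtp2 encode near-identical proteins, known as the T cell-specific GTPase, that load onto the same vacuoles. Tgtp1 had 10.0, 21.1 and 12.4 CPM in NOD, against 2.43, 0.888 and 1.55 CPM in ICR. Tgtp2 had 12.5, 26.0 and 17.6 CPM in NOD, against 1.49, 1.19 and 1.12 CPM in ICR. The log2 fold changes were 3.16 ± 0.45 for Tgtp1 and 3.88 ± 0.33 for Tgtp2 (SE), the highest of the 8. Of all windows of 150 bases, the read length, in the longest annotated transcripts, 74.1% in Tgtp1 and 71.7% in Tgtp2 were also found in another gene, almost all in each other, so the split between them is uncertain. The sum of both is not affected by that split. It was 22.5, 47.1 and 30.0 CPM in NOD and 3.91, 2.08 and 2.67 CPM in ICR, with a log2 fold change of 3.52 ± 0.36 (SE), or 11.5-fold. With 1 library left out in turn it stayed between 3.17 and 3.79.

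Gvin1, a gene of chromosome 7 with a very long coding sequence, had 21.2, 30.0 and 24.0 CPM in NOD, against 4.81, 5.18 and 4.73 CPM in ICR. The ICR libraries differed by at most 1.09-fold, and the log2 fold change was 2.35 ± 0.19 (SE), the smallest error of the 8. Of its 150-base windows 96.2% were found in another gene, chiefly in the neighbouring copy Gm4070 (8406 of 8856), so its counts cannot be told apart from those of that copy. The other overlaps were small. In the longest Igtp transcript 16 windows were also found in an Irgm2 transcript other than its longest, and the longest transcripts of Irgm1, Irgm2, Iigp1 and Ifi47 had no window in common with another gene. Igtp and Irgm2 overlap on the same strand in the annotation, as do Tgtp1 and Gm12185, and Ifi47 overlaps the olfactory receptor gene Olfr56 on the same strand. How reads in such overlaps were counted is not given in the sources used here.

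**Figure D2:**
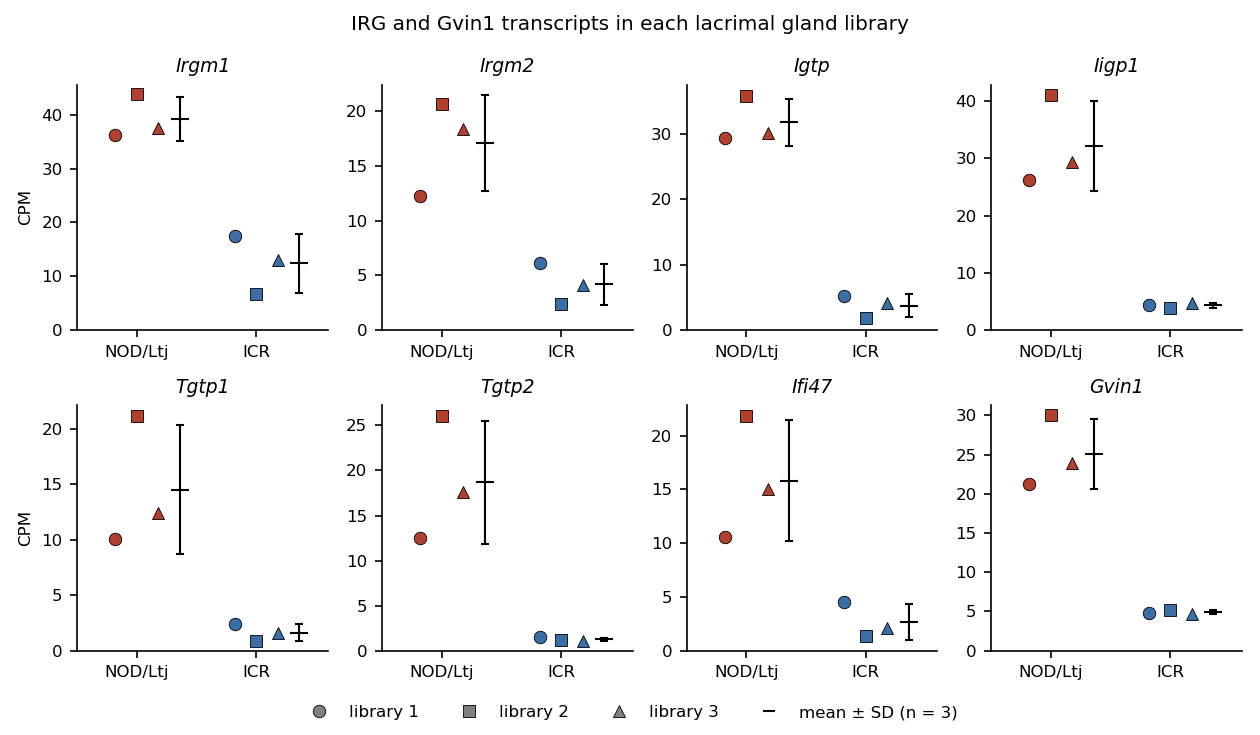
CPM (y axis, from 0) of the 8 genes in each library, NOD/Ltj left and ICR right of each panel, with the mean and SD over 3 libraries as bars. In every panel all NOD points lie above all ICR points, NOD 2 is the highest point, and Igtp, Tgtp1 and Ifi47 show a wider relative spread in ICR than Iigp1 and Gvin1.

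Levels of different genes were compared per kilobase of the longest annotated transcript. In NOD the order was Igtp (15.7 ± 1.76 CPM per kilobase), Iigp1 (10.3 ± 2.51), Irgm1 (10.2 ± 1.05), Ifi47 (8.92 ± 3.19), Tgtp2 (6.65 ± 2.43), Tgtp1 (5.14 ± 2.07), Irgm2 (4.85 ± 1.24) and Gvin1 (2.78 ± 0.501, SD, n = 3 each). Igtp lay above all others in each NOD library and Gvin1 below all others, while neighbours from Iigp1 to Irgm2 overlapped in range. In ICR Irgm1 led with 3.23 ± 1.43 CPM per kilobase, followed by Igtp (1.85 ± 0.843), Ifi47 (1.51 ± 0.923), Iigp1 (1.38 ± 0.122), Irgm2 (1.19 ± 0.536), Tgtp1 (0.575 ± 0.273), Gvin1 (0.545 ± 0.0268) and Tgtp2 (0.451 ± 0.0692, SD, n = 3 each). Each gene overlapped its neighbours in that order. Per kilobase of coding sequence the order changed, with Irgm1 first in both strains at 31.9 ± 3.27 in NOD and 10.1 ± 4.45 CPM per kilobase in ICR (SD, n = 3 each) and Igtp behind Irgm1 and Iigp1 in NOD, so the leading place in NOD depends on the length used.

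The mix of IRG transcripts also differed. Irgm1 made up 19.0, 14.8 and 16.8% of the summed per-kilobase levels of the 7 IRGs in NOD, against 32.1, 28.4 and 33.2% in ICR. Tgtp2 made up 8.91, 12 and 10.7% in NOD, against 3.73, 7.01 and 3.87% in ICR. Igtp made up 29.2, 23.0 and 25.5% in NOD and 18.2, 15.3 and 19.9% in ICR. The shares of Irgm2 (6.98 to 8.91% in NOD, 10.9 to 12.2% in ICR) and Tgtp1 (7.14 to 9.68% in NOD, 5.18 to 6.05% in ICR) lay apart too, while those of Iigp1 and Ifi47 overlapped. A larger share went with the regulator Igtp as well as with Tgtp1 and Tgtp2, whose split is uncertain, and a smaller one with the regulators Irgm1 and Irgm2. The GKS effectors together made up 44.8, 54.6 and 48.8% in NOD and 37.5, 45.4 and 35.6% in ICR, and on this length these ranges overlapped. The regulators' share is the complement of that. In plain CPM, not divided by length, the GKS sums were 59.2, 110 and 74.4 in NOD and 12.8, 7.35 and 9.49 in ICR. The GMS sums were 77.9, 100 and 86.2 CPM in NOD and 28.8, 10.8 and 21.3 CPM in ICR. From these sums the GKS shares of the strains lay apart, so the overlap depends on the length used.

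Of the other genes of both families, 15 of 16 on the list were in the table and tested, 8 were called higher in NOD and none lower, and the median log2 fold change was 2.17, against −0.03 over all genes tested. This list was drawn up with results of these data known. Without NOD 2 the count was 4 and without NOD 3 it was 1, while calls over all genes tested fell from 416 to 73 and 13. Among the 8 called genes, 5 are annotated pseudogene copies of Gvin1. Gm8995, a transcribed one, had 29.6, 45.7 and 32.9 CPM in NOD and 3.65, 3.84 and 3.95 CPM in ICR (log2 fold change 3.24 ± 0.22 SE, adjusted p = 0.00292 by edgeR). Gm4759, Gm1966, Gm8979 and Gm8989 summed to 18.4, 30.1 and 21 CPM in NOD, against 0.881, 0.646 and 1.33 CPM in ICR. Their log2 fold changes were 4.55, 5.41, 4.19 and 4.16, and all of these rested on few fragments in ICR. The ICR libraries held 22, 18 and 30 counts for Gm4759 and 13, 2 and 14 for Gm1966. They held 12, 15 and 19 counts for Gm8979 and 14, 5 and 13 for Gm8989. Gm4070, the coding copy of Gvin1, had 23.2, 33.5 and 25.7 CPM in NOD, against 6.32, 6.10 and 5.83 CPM in ICR (log2 fold change 2.17 ± 0.19 SE, adjusted p = 0.00547 by edgeR).

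Gvin1 and these 6 copies together had 92.4, 139 and 104 CPM in NOD, against 15.7, 15.8 and 15.8 CPM in ICR, with a log2 fold change of 2.83 ± 0.21 (SE) for the sum. The 2 coding genes made up 48.1, 45.6 and 48.0% of that sum in NOD and 71.1, 71.5 and 66.7% in ICR. Gm8979, Gm8989, Gm1966 and Gm4759 made up 19.9, 21.6 and 20.3% in NOD, against 5.62, 4.09 and 8.38% in ICR. Whether the strains carry the same copies, or whether reads of one strain align differently to this part of the genome, was not tested.

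**Figure D3:**
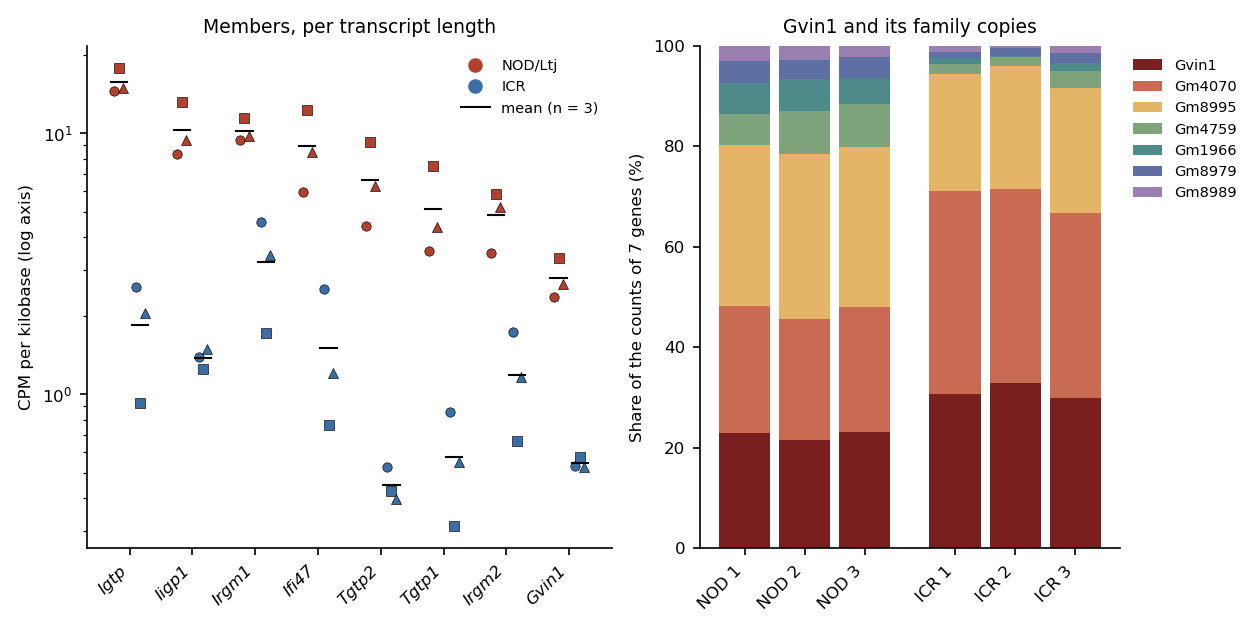
Left, CPM per kilobase of the longest transcript (log axis) of the 8 genes in NOD/Ltj and ICR libraries, with the mean as a line. Right, the share in percent of Gvin1 and each of its 6 copies in the counts of all 7 in each library. Gvin1 and Gm4070 fill 45.6 to 48.1% of the NOD bars and 66.7 to 71.5% of the ICR bars.

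The remaining family genes were IRGs. 9930111J21Rik2, which RefSeq also names Irgb5, had 5.53, 8.46 and 7.4 CPM in NOD and 2.35, 1.24 and 1.69 CPM in ICR (log2 fold change 2.01 ± 0.33 SE, adjusted p = 0.0251 by edgeR). Gm12185, also named Irgb2b1, had 93, 117 and 88 counts in NOD, against 4, 4 and 0 in ICR, and was called higher (adjusted p = 0.0235 by edgeR). As ICR held at most about 1 fragment per library, if 4 counts stand for a fragment, no fold is given. 9930111J21Rik1 (log2 fold change 1.97 ± 0.40 SE, adjusted p = 0.0538) and Gm12250 (1.93 ± 0.57, adjusted p = 0.184), which RefSeq also names Irgb10, did not pass the test, though the groups of both were apart. Gm4951, an IRG-family gene on the chromosome of Iigp1, had 0.222, 0.548 and 0.227 CPM in NOD and 0.780, 0.436 and 0.437 CPM in ICR and did not pass. Irgq, a divergent family member with low similarity to the others, had 12.2, 9.11 and 9.19 CPM in NOD, against 8.88, 7.96 and 5.83 CPM in ICR, and did not pass (log2 fold change 0.43 ± 0.23 SE, adjusted p = 0.519). Irgc1, known in mice as a testis-expressed IRG, had 14, 180 and 75 counts in NOD and 4, 0 and 0 in ICR and did not pass either (adjusted p = 0.0822).

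The guanylate-binding proteins are larger interferon-inducible GTPases that join IRGs on the same vacuoles. Of 11 genes, 7 were called higher and none lower, and the median log2 fold change was 2.57, against −0.03 over all genes tested. Gbp8 had 9.25, 24.0 and 16.7 CPM in NOD, against 0.217, 0.565 and 1.19 CPM in ICR (log2 fold change 4.68 ± 0.65 SE, adjusted p = 0.0160 by edgeR). Gbp4, Gbp6, Gbp5, Gbp2b, Gbp9 and Gbp3 rose by 2.84, 2.77, 2.69, 2.57, 2.22 and 1.66 on the log2 scale. Gbp2 and Gbp7 were not called, at 1.42 ± 0.55 and 1.99 ± 0.49 (log2, SE), and both were highest among the ICR libraries in ICR 1 (14.2 CPM for Gbp2, against 3.36 and 4.91 CPM in ICR 2 and ICR 3). The count moved with single libraries: it was 0 of 11 with NOD 3 left out, 1 with NOD 2, and 3 with ICR 2 or ICR 3 left out. Calls over all genes tested fell in the same fits, from 416 to 13 (NOD 3), 73 (NOD 2), 142 (ICR 2) and 149 (ICR 3).

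**Figure D4:**
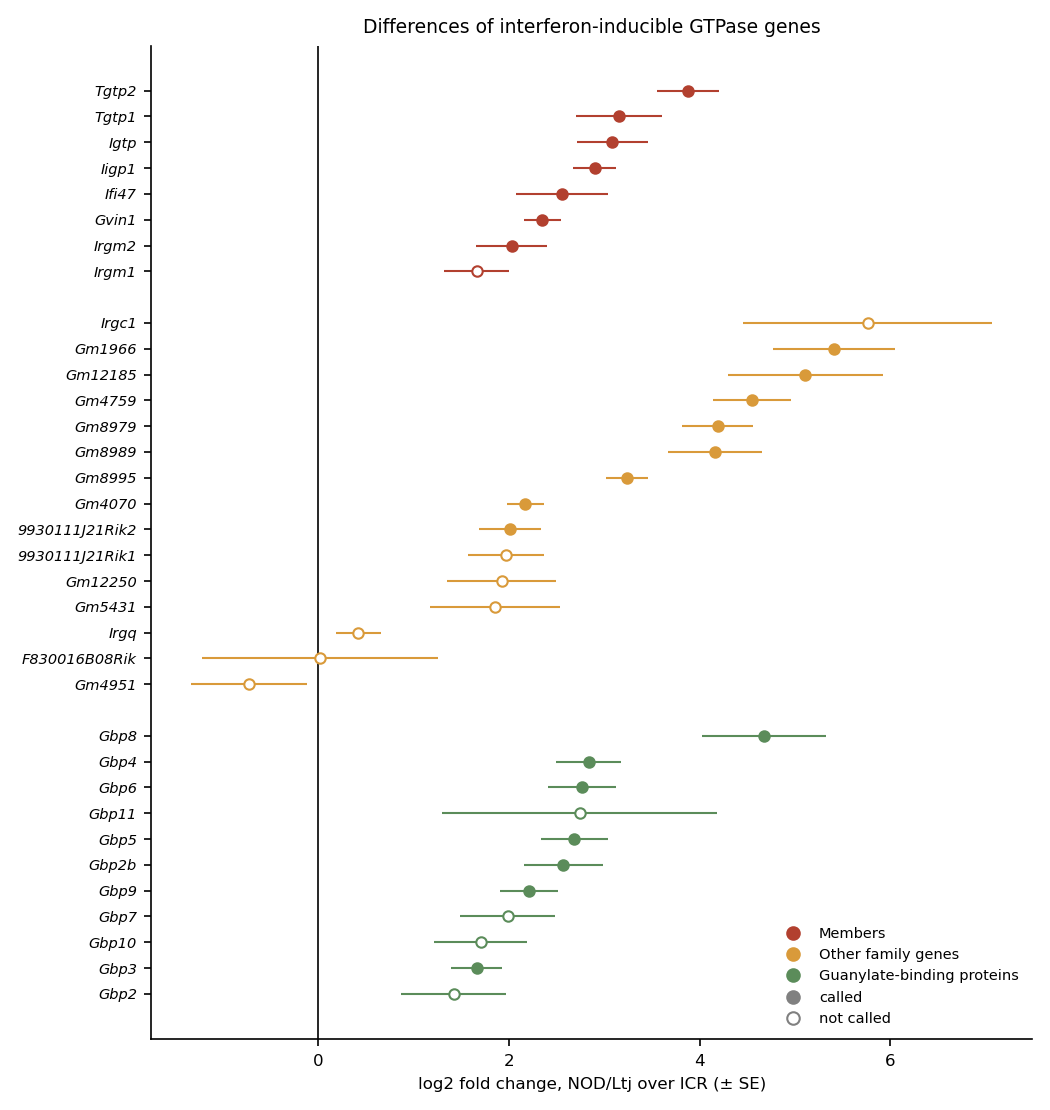
Log2 fold changes of NOD/Ltj over ICR (x axis, with SE bars) of the 8 members, 15 other family genes and 11 guanylate-binding protein genes, sorted within each group. Filled points were called at an adjusted p under 0.05, and all points but that of Gm4951 lie above 0.

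Genes of interferon signalling, which acts upstream of the IRGs, were taken as a further list. Of 27 ligands, receptors, kinases and factors of interferon signalling, 23 were tested, 2 were called higher and none lower, with a median log2 fold change of 0.77. Ifng, which encodes interferon-γ, had 15, 57 and 39 counts in NOD, against 16, 0 and 0 in ICR, and did not pass (adjusted p = 0.479 by edgeR). The receptor chains Ifngr1 (log2 fold change 0.33 ± 0.26 SE) and Ifngr2 (−0.11 ± 0.44) and the receptor kinases Jak1 (0.54 ± 0.22) and Jak2 (0.92 ± 0.29) did not pass. Irf1, an interferon-inducible transcription factor, had 24.5, 42.4 and 33.8 CPM in NOD and 28.4, 11.5 and 15.4 CPM in ICR, with ICR 1 above NOD 1 (log2 fold change 0.87 ± 0.36 SE, adjusted p = 0.369 by edgeR). Ptpn6, a phosphatase of blood cells that dampens cytokine receptor signalling, was called (log2 fold change 1.61 ± 0.30 SE, adjusted p = 0.0413 by edgeR). Ifnb1, Ifna4, Ifnl2 and Ifnl3, ligands of type I and type III interferon, had 0 counts in every library. With NOD 3 left out none of the signalling genes was called, and with NOD 2, ICR 2 or ICR 3 left out 1 was. Over all genes tested these fits called 13, 73, 142 and 149, against 416 with all libraries.

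Of 19 other interferon-γ induced genes tested, 7 were called higher and none lower, with a median log2 fold change of 2.01. Cxcl9, a chemokine that draws activated T cells, had 14.9, 24.2 and 19.0 CPM in NOD, against 0.621, 0.501 and 0.419 CPM in ICR (log2 fold change 5.23 ± 0.29 SE, adjusted p = 0.00139 by edgeR). Cxcl10, a chemokine of the same receptor, rose by 3.38, and Nlrc5, which drives MHC class I genes, by 3.40 on the log2 scale. Tap1 (2.90) and Psmb9 (2.50), which supply peptides to MHC class I, B2m (1.70), its light chain, and Cd274 (2.33), the checkpoint ligand PD-L1, also rose. With NOD 3 left out the count was 1, with NOD 2 it was 3, with ICR 2 or ICR 3 it was 4, and with ICR 1 it was 11. Over all genes tested these fits called 13, 73, 142, 149 and 524, against 416 with all libraries.

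Of 23 antiviral genes known from the type I interferon response, 3 were called higher (Mx1, Rsad2 and Zbp1) and none lower, with a median log2 fold change of 1.43. Mx1, a dynamin-like antiviral GTPase, had 12.4, 8.03 and 8.21 CPM in NOD, against 0.823, 0.452 and 1.40 CPM in ICR (log2 fold change 3.42 ± 0.45 SE, adjusted p = 0.0137 by edgeR). Rsad2 (viperin) rose by 2.15 and the nucleic acid sensor Zbp1 by 2.17. With NOD 2 or NOD 3 left out none of the 23 was called, with NOD 1, ICR 2 or ICR 3 left out 1 was, and with ICR 1 left out 7 were. Over all genes tested these fits called 73, 13, 442, 142, 149 and 524, against 416 with all libraries. Of 16 autophagy and ubiquitin factors, which in mice place IRGs on vacuoles (Atg3, Atg5, Atg7, Atg12 and Atg16l1 among them), none was called in either direction by edgeR (1 at an unadjusted p under 0.05), 1 was lower by DESeq2 and none was called by limma-voom, and the median log2 fold change was −0.05. Map1lc3a had 6.35, 6.29 and 4.63 CPM in NOD and 14.0, 16.2 and 8.47 CPM in ICR, and did not pass (adjusted p = 0.103).

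The members lie in clusters on chromosome 11 (Irgm1, Tgtp1, Tgtp2 and Ifi47 in one, Igtp and Irgm2 in another), chromosome 18 (Iigp1) and chromosome 7 (Gvin1). Of the 41 nearest protein-coding genes around them, 30 were tested and none was called by edgeR (2 at an unadjusted p under 0.05) or limma-voom, 1 was called by DESeq2, and the median log2 fold change was −0.11. Trim7, beside the Irgm1 cluster, had the largest difference among neighbours above 1 CPM, with 28 CPM in NOD and 13.2 CPM in ICR (log2 fold change 1.09 ± 0.31 SE, adjusted p = 0.164 by edgeR). Cnot8, beside Igtp and Irgm2, was at 24.2 ± 1.23 CPM in NOD and 22.4 ± 1.19 CPM in ICR (SD, n = 3 each). One of the 30, Gm4841, carries the RefSeq synonym Ifgga3 and so an IRG-family name, and it stood at 0.39 CPM in NOD and 0.35 CPM in ICR.

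Within NOD, all 8 genes were lowest in NOD 1 and highest in NOD 2, an order that 23.8% of all genes tested shared. NOD 2 was 2.10-fold above NOD 1 for Tgtp1, 2.09-fold for Tgtp2 and 2.06-fold for Ifi47, and 1.21-fold for Irgm1. The same order held in 10 of 10 T cell markers, 8 of 8 B cell markers, 8 of 11 guanylate-binding proteins and 15 of 19 other interferon-γ induced genes. It was not confined to immune genes. Among tested markers it held in 5 of 7 of salivary gland, 4 of 5 of skeletal muscle and 4 of 5 of Harderian gland and adipocytes. It held in 4 of 10 macrophage, 3 of 8 lacrimal acinar and 0 of 3 erythrocyte markers. The antiviral genes of the type I response ran otherwise, with NOD 1 highest in 19 of 23, where NOD 1 was highest in 37.9% of all genes. NOD 2 was highest in 3 of the 23 (Oas3, Ddx58 and Zbp1), and Ifit3b was highest in NOD 3. Within ICR, ICR 1 was highest in 6 of the 8 members, all but Iigp1 and Gvin1, where it was highest in 39.7% of all genes. The genes of a list share libraries, so these counts describe 6 libraries.

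**Figure D5:**
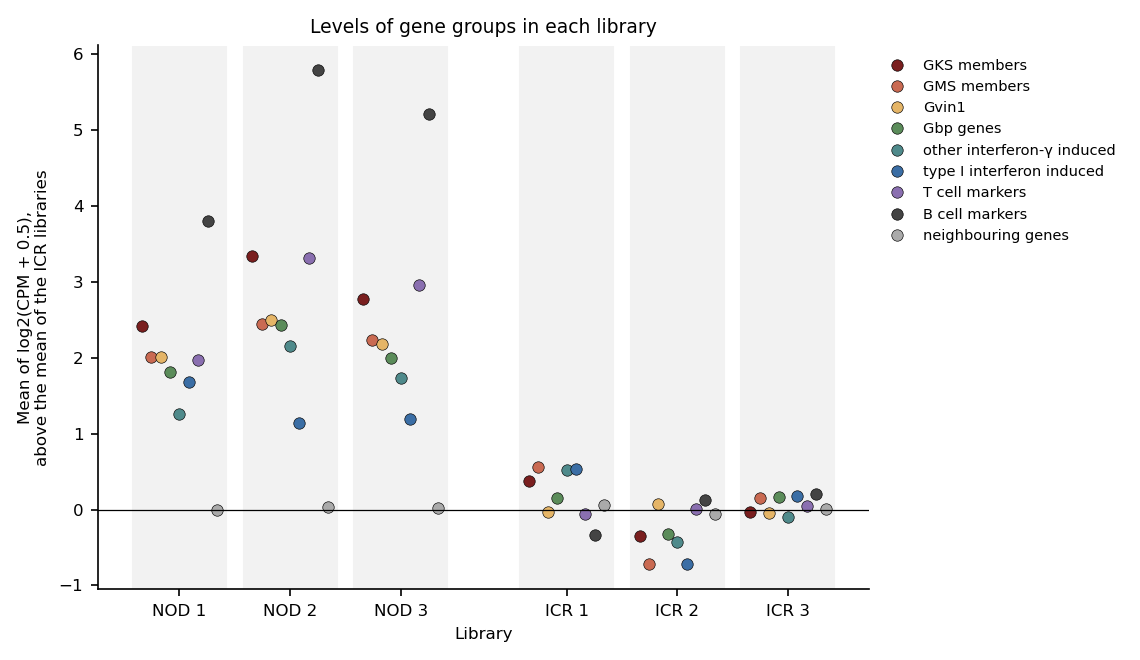
Mean over the genes of each group of log2(CPM + 0.5), minus the mean of the ICR libraries, in each library (y axis). The GKS genes stand at 2.41, 3.34 and 2.77 in NOD 1, 2 and 3, the type I interferon induced genes at 1.67, 1.14 and 1.20, and the neighbouring genes within 0.07 of 0 in all 6 libraries.

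Markers of immune cells were read in the same libraries. The 10 T cell markers summed to between 33.3 and 93.9 CPM in NOD and between 3.36 and 3.72 CPM in ICR, with 5 called higher by edgeR, 10 by DESeq2 and none by limma-voom. The 8 B cell markers summed to between 119 and 492 CPM in NOD and between 2.57 and 6.17 CPM in ICR, with 7 called higher by edgeR, 8 by DESeq2 and 3 by limma-voom. The 10 NK and cytotoxic cell markers summed to between 8.20 and 16.8 CPM in NOD, against between 2.18 and 3.33 CPM in ICR, with none called by edgeR (5 at an unadjusted p under 0.05) or limma-voom and 4 by DESeq2. The 10 macrophage markers summed to between 163 and 258 CPM in NOD, against between 75.9 and 306 CPM in ICR, with none called by edgeR (2 at an unadjusted p under 0.05), DESeq2 or limma-voom. Within ICR 9 of the 10 macrophage markers were highest in ICR 1, all but Mertk, as were 6 of the 8 GTPase genes. ICR 1 was also highest in 6 of 6 epithelial markers and 5 of 5 tested Harderian gland and adipocyte markers. The trait was therefore not particular to macrophage markers. It was seen in 4 of 10 T cell markers and 1 of 8 B cell markers. Of the 8 dendritic cell markers edgeR called 1 higher (Ccr7, with 6 at an unadjusted p under 0.05), DESeq2 4 and limma-voom none. Log2 fold changes were positive in 7 of the 8, while Cd209a was lower in all NOD libraries than in any ICR library (−1.46 ± 0.51 SE). Of the 8 endothelial markers none was called by edgeR (3 at an unadjusted p under 0.05) or limma-voom. DESeq2 called 2 of them higher and 1 lower, and the log2 fold change was positive in 4 of the 8. No marker of the 6 immune and endothelial lists was at 0 in all ICR libraries or in all NOD libraries. The part of these cells in the levels of the 8 GTPase genes was not tested.

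Leaving out the libraries that stood apart left each difference positive. Without ICR 1 the log2 fold changes of the 8 genes ran from 1.98 (Irgm1) to 4.0 (Tgtp2), without ICR 3 from 1.70 to 3.80, and without NOD 2 from 1.57 to 3.56. The count of members called, which their choice bears on, was 2 when NOD 3 was dropped, 3 for NOD 2, 4 for ICR 2 or ICR 3, 5 for NOD 1 and 8 for ICR 1. The share of all genes tested that was called higher moved too. It was 0.0572% without NOD 3, 0.33% without NOD 2, 0.577% without ICR 2 and 0.621% without ICR 3. Without NOD 1 it was 2.09% and without ICR 1 it was 2.1%.

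Among 13943 genes outside both families with a mean of at least 1 CPM, the 5 whose pattern over the 6 libraries was most like the mean of the 7 IRGs included Ier5 (Pearson r = 0.998), Samd9l (0.996), Mndal (0.996) and Slamf7 (0.996). These correlations are a description over 6 libraries of 2 strains, which share the strain difference that chose the members. Samd9l, an interferon-inducible antiviral gene, had 72.7, 101 and 84.6 CPM in NOD and 18.0, 7.01 and 13 CPM in ICR. Mndal, of the Ifi200 family, had 43.3, 66.5 and 56.3 CPM in NOD and 15.2, 8.75 and 14.6 CPM in ICR. Slamf7, a receptor of NK and plasma cells, had 3.76, 6.24 and 4.63 CPM in NOD, against 1.08, 0.678 and 0.873 CPM in ICR. Ier5, an immediate early gene, had 10.1, 12.1 and 10.9 CPM in NOD, against 4.95, 3.79 and 4.59 CPM in ICR. Gvin1 correlated with the IRG mean at r = 0.972, and 119 of the 13943 genes had an r at least as high. Pairs of the 8 members correlated at between 0.896 and 0.997.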

How the data were processed

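The deposited table held estimated counts per gene for 6 libraries, already whole and unscaled, where the planned test had assumed plain counts, so nothing was rounded. Per the labels' protocols, polyadenylated RNA went into strand-specific dUTP libraries read as pairs of 150 bases. Among tools, fastp, StringTie and edgeR appear in the submitters' processing notes. No source used here gives the aligner, the genome build or the counting rule.

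Names, transcript lengths and overlaps came from the GENCODE M21 annotation (55141 of 55401 identifiers matched). Neighbours were the protein-coding genes of RefSeq, and promoters came from RefSeq, GRCm38.p6. edgeR 4.0.16 in R 4.3.3 was used with filterByExpr, TMM scaling and its quasi-likelihood test, two-sided, with Benjamini-Hochberg adjustment over 18537 genes and a call at an adjusted p under 0.05. The SE was derived from the F statistic. DESeq2 1.42.0, limma-voom (limma 3.58.1), other scalings and filters, a replicate block and fits without single libraries served as alternatives. On simulated counts made from these libraries the script was checked to recover the genes changed. The simulated spread was set smaller than the one fitted here, and the changes were large and in well-counted genes. The check therefore covers the code and not the power of the test in these libraries.

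The members, the lists and the naming rule were chosen with earlier results of these data known. The text names every member, every called gene of a pathway list and genes of stated role (ligand, receptors, kinases, Irf1), and other list genes and neighbours (such as Gbp2, Map1lc3a, Trim7 and Cnot8) were picked after their values were seen. No 2 libraries agreed within sampling noise (chi-square per degree of freedom of at least 129). One gene that the naming rule covers is not reported here.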

Additional observations from a re-analysis of the deposited data

How the results depend on the processing

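All 8 members and both sums had positive differences under every alternative run. Of 112 member values under the alternatives, 83 stayed on the same side of the threshold, 25 lost the call and 4, all of Irgm1, gained it. The members were chosen on this difference, so these counts are no support for it. With 1 library left out, the log2 fold change of Ifi47 ranged widest of the 8, between 2.25 and 3.17.

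DESeq2 called 1183 genes, 7 interferon signalling genes, 8 antiviral genes of the type I response, 1 autophagy factor and 1 neighbour, and limma-voom called 143 genes and 1 signalling gene. Library totals alone gave 266 genes, 4 guanylate-binding proteins and 1 signalling gene. Without ICR 1 and NOD 2 together, an alternative chosen after seeing the data, 218 genes and 1 signalling gene were called. Gene counts ranged from 13 (without NOD 3) to 524 (without ICR 1) with 1 library left out, members from 2 to 8, other family genes from 1 to 9, guanylate-binding proteins from 0 to 9, signalling genes from 0 to 3, other interferon-γ induced genes from 1 to 11 and antiviral genes from 0 to 7. The Tgtp1 and Tgtp2 sum ranged from 3.17 to 3.79 and lost its call without NOD 3 (3.60). The cause was not tested.

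Replicate numbers are shared by the groups. Deviations of same-numbered libraries from their group mean correlated at r = −0.161, −0.189 and 0.118. Libraries of different number had r between −0.116 and 0.223. As deviations were centred within groups of 3, these values cannot tell whether same-numbered libraries share more than a number. With the replicate block 154 genes, 4 members, 4 other family genes, 4 guanylate-binding proteins, 0 signalling genes, 4 other interferon-γ induced genes and 1 antiviral gene were called. Among the genes refitted under each alternative (members, called pathway genes and genes of stated role, not every gene named), Ifngr2 changed sign, to 0.0634 with limma-voom, 0.0922 with the block, between −0.37 and 0.59 with 1 library left out and 0.44 without ICR 1 and NOD 2 together. Where ICR held few fragments (Gm12185, Irgc1, Gm1966, Gm4759, Gm8979, Gm8989 and Ifng), depth limits the size of the difference.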
